A study of Drosophila melanogaster with 24 samples.

Results

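Expression of 37 genes that recognise microbes and carry the signal of the Imd and Toll pathways was examined in Drosophila melanogaster populations selected for life in high oxygen and in their controls. The genes were taken by symbol: 12 peptidoglycan recognition proteins (PGRPs), 3 proteins of the family named for binding beta-glucan or Gram-negative bacteria (GNBPs), 9 members of the Imd cascade, 5 proteases and serpins upstream of the Toll ligand, and 8 genes from that ligand to its transcription factors. No measured value entered the rule that took the genes, but the list was drawn up with earlier results of these data known. The probe set that stands for a gene was chosen by brightness. Of the 37 genes, 29 had a probe set of their own among the 11981 genes that did, and each was read by its brightest probe set. PGRP-SC1a was read only together with its near copy PGRP-SC1b, and PGRP-LD only by a probe set that also matched another gene, so neither was counted. PGRP-LC, PGRP-SA, PGRP-SD, GNBP1, Tak1 and modSP were not named in the annotation used here and were not analysed.

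Whole animals were profiled on 24 Affymetrix Drosophila Genome 2.0 arrays. All populations, control and selected alike, descended from the same pool of intercrossed isogenic lines, and the labels name no mutation or transgene in any group. The hyperoxia-selected strain, called SO2A, came from long-term selection under rising oxygen, and the controls were generation-matched naive populations kept in room air. Each group held 3 populations with 2 arrays apiece, which made 6 arrays each of control adults, SO2A adults, control larvae and SO2A larvae. An adult sample was a pool of 25 males and 25 females. SO2A adults were collected from the hyperoxia chamber and control adults from the room air chamber, so that inherited difference and oxygen at collection cannot be told apart in adults. Larvae were of the 3rd instar. Neither the oxygen level around them at collection nor the age of the adults was given in the sources used here. The 3 populations of a group were kept apart in the tests as a block, because 2 arrays of a population are not 2 populations.

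The Imd pathway answers the peptidoglycan of Gram-negative bacteria. Its receptors PGRP-LC and PGRP-LE recruit the adaptor imd, which gathers Fadd and the caspase Dredd, and the kinase Tak1 with Tab2 then acts on an IKK complex that contains key. The transcription factor Rel is cleaved and switches on antimicrobial peptide genes such as the diptericins. The pathway also switches on its own brakes, among them the amidases PGRP-LB and PGRP-SC2, which digest peptidoglycan, and pirk, which binds receptor and adaptor. The Toll pathway answers fungi and Gram-positive bacteria through PGRP-SA, GNBP1 and GNBP3. A chain of serine proteases ends in SPE, which cuts the ligand spz, and the receptor Tl then signals through Myd88, tub and pll until cact is degraded and dl and Dif enter the nucleus. The same receptor and its partners set the dorsal-ventral axis of the embryo, and their messages are loaded into the egg. In whole flies the fat body, gut, hemocytes and, in females, the ovary all carry parts of these pathways. In such bulk samples fewer cells of a type and less RNA per cell cannot be told apart.

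Signals are given in the linear units of the deposited table, in which the trimmed mean of every array was 2500.1, and 20% of all signals lay below 90.4. Array medians ranged from 401.6 to 685.2. The highest was that of the first array of control adult population 3, which gave the lowest signal of the 12 adult arrays for 11 of the 29 genes, Tl, cact and dl among them. The second array of SO2A adult population 1 gave the lowest for 7, PGRP-SB1 and pirk among them. Of the stage markers, all 5 measured adult ones were called higher in adults and both measured larval ones lower. Differences are on the log2 scale with the standard error of limma's moderated fit, and a gene was called where the Benjamini-Hochberg adjusted p over 18769 probe sets was under 0.05. The median difference over all probe sets was not 0. It was 0.06 for SO2A minus control in adults, -0.11 in larvae, 0.09 for adults minus larvae in control populations and 0.30 in SO2A populations. Quantile normalization brought these medians to 0.01, -0.00428, 0.08 and 0.08.

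The first question was whether selection was accompanied by different levels of these genes in adults. None of the 29 genes was called in SO2A adults against control adults with limma, while 0.357% of all probe sets were called. Their median difference was 0.01, and 17 lay above 0 and 12 below. An unadjusted p under 0.05 was reached by 3 of the 29, PGRP-SB1, PGRP-SC2 and Fadd, and by 2086 of the 18769 probe sets. For 8 of the 29 genes, all of Imd or Toll signalling and none of them a recognition protein, the sign depended on how the arrays were scaled. The 6 arrays of SO2A adults did not separate from those of control adults for any of the 29 genes, and 2.4% of all probe sets separated. Without control population 3, or without SO2A population 1, the count of called genes was 0 as well.

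PGRP-SB1, a secreted amidase that is induced on infection through the Imd pathway, had the largest difference among these genes in adults. On the 6 control arrays its signal ran from 4671 to 6631 with a median of 4974. On the SO2A arrays it was 16928 and 3669.9 in population 1, 21113 and 4502 in population 2, and 15172 and 17782 in population 3. Thus 4 SO2A arrays lay above every control array and the other 2 lay below every control array. In populations 1 and 2, 1 array of the same population was high and the other low. The labels do not say whether the 2 arrays of a population were separate pools of flies or repeat hybridisations. The difference was 1.06 ± 0.48 (SE, n = 6 arrays of 3 populations a group), or 2.08-fold, with an adjusted p of 0.45 in limma. The gene is on the study's own list of altered genes, which was chosen on these same arrays, so that listing is not independent evidence. The list took a fold over 1.5 and a Bonferroni adjusted p under 0.0001, which 0 of 18769 probe sets met in adults in the main fit here. With all 24 arrays in one fit, 1 probe set met them in adults. The study describes no limma fit with population as a block, and which normalized values gave its list was not stated. The 0 is therefore not a repeat of the study's test. The 4 arrays with high PGRP-SB1 were also the 4 with high diptericin B (DptB), an antimicrobial peptide under Rel. DptB stood at 30030, 44732, 30364 and 34694 on them and at 1245 and 941 on the other 2 SO2A arrays. In control adults DptB lay between 260.3 and 672.7, and its difference was 4.53 ± 1.12 with an adjusted p of 0.143 in limma. Of the other measured peptide genes, Mtk had a mean log2 signal of 10.21 in control and 14.33 in SO2A adults. The same means were 7.86 and 10.12 for AttD and 9.1 and 10.24 for CecB. They were 15.14 and 15.42 for Drs and 14.08 and 13.84 for BomS2. The study also measured DptB by real-time PCR and reports that the result matched its arrays.

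**Figure D1:**
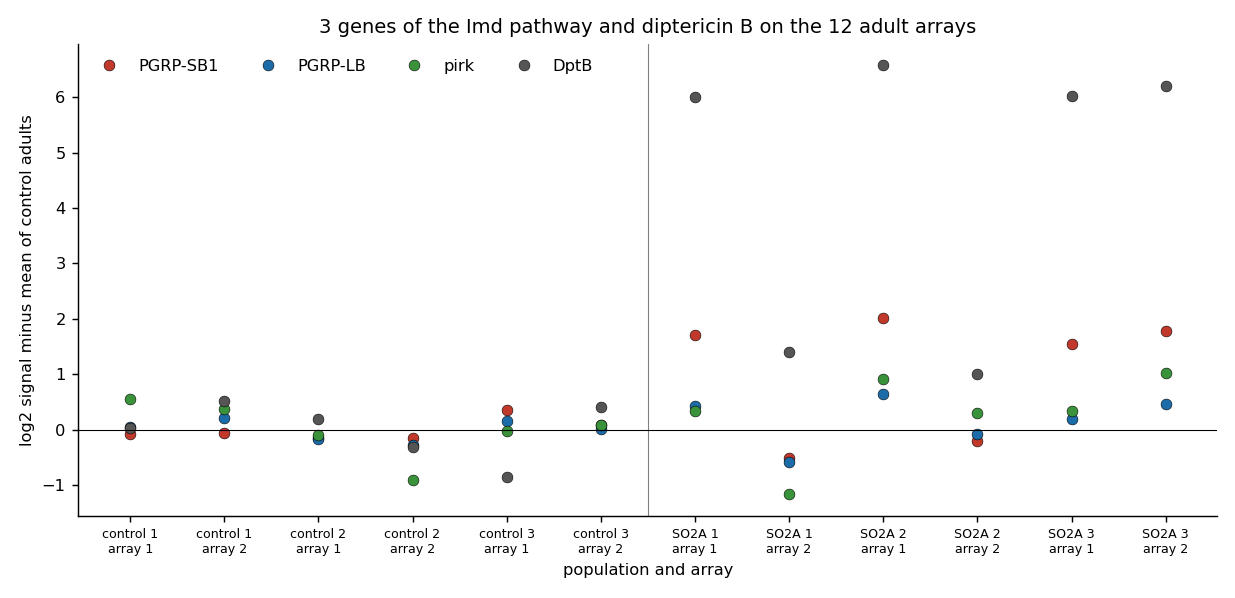
log2 signal of PGRP-SB1, PGRP-LB, pirk and DptB on each of the 12 adult arrays, less the gene's mean over the 6 control adult arrays; each point is 1 array. PGRP-SB1 and DptB are high on the first array of SO2A populations 1 and 2 and on both arrays of population 3, and PGRP-SB1 is below every control array on the other 2.

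The genes whose log2 signals over the 12 adult arrays were most like those of PGRP-SB1 were edin, CG14499, Tsf1, Srg2 and Def, with Pearson r of 0.945, 0.937, 0.935, 0.933 and 0.927, out of 11980 genes. edin and Def (defensin) encode peptides induced by infection, and Tsf1 encodes a transferrin. DptB came next with 0.926. PGRP-LB was 38th with 0.857, and pirk stood at 0.668. All 12 points share the same arrays and, in pairs, populations, and these correlations are a description only.

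PGRP-LB and pirk, brakes of the Imd pathway that are themselves its targets, differed by far less. PGRP-LB ranged from 1058 to 1474 in control adults with a median of 1303 and from 849 to 2004 in SO2A adults with a median of 1585, and 3 SO2A arrays lay above every control array. The difference was 0.18 ± 0.22 with an adjusted p of 0.814. For pirk the control adults ran from 350.3 to 964.9 with a median of 673.5 and the SO2A adults from 294.2 to 1339.8 with a median of 830.6. Lowest of all 12 was the second array of SO2A population 1, on which PGRP-SB1 and PGRP-LB were lowest as well. The difference of pirk was 0.29 ± 0.38 with an adjusted p of 0.826 in limma. With each population left out in turn it ranged from 0.043 without control population 2 to 0.64 without SO2A population 1.

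PGRP-SC2, a secreted amidase of the gut that scavenges peptidoglycan, was lower on average in SO2A adults. Its signal was 18406 to 25687 in control adults (median 23837) and 7618 to 22397 in SO2A adults (median 14977). Of the SO2A arrays 4 lay below every control array. The difference was -0.63 ± 0.24 with an adjusted p of 0.355, and it was -0.38 without SO2A population 1. Fadd, the adaptor between imd and Dredd, was 1308 to 1827 in control adults (median 1679) and 1170.5 to 1334 in SO2A adults (median 1244). For Fadd 5 of the 6 SO2A arrays lay below every control array, and both low control arrays were of population 3. The Fadd difference of -0.34 ± 0.11 had the smallest adjusted p among the 29 genes in adults, 0.259.

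Between the adult groups 1 of 6 fat body markers was called lower in SO2A adults and none of the hemocyte, gut, ovary or testis markers was called. The summed gut signal ran from 367891 to 476973 in control adults and from 242804 to 479174 in SO2A adults, and the summed fat body signal from 227722 to 310014 and from 283461 to 296330. Their part in the adult differences of PGRP-SC2 and PGRP-SB1 was not tested.

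GNBP3, the sensor of fungal beta-glucan upstream of Toll, was 1671 to 2244 in control adults with a median of 2171, and 1085 to 2429 in SO2A adults with a median of 1812. The groups overlapped and the difference was -0.27 ± 0.21 with an adjusted p of 0.693. It ranged from -0.47 without SO2A population 3 to -0.16 without SO2A population 1. PGRP-SB2, which lies next to PGRP-SB1 in the genome, was dim, with 38.7 to 429.5 in control adults and 114 to 323.7 in SO2A adults. Its medians were 314.1 and 183.6. The difference was -0.28 ± 0.60, less than its own standard error, and the adjusted p was 0.898.

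The Toll ligand, its receptor and the genes downstream differed least in adults. All 8 of them lay between -0.03 and 0.11, and the 4 measured proteases and serpin upstream of the ligand lay between -0.20 and -0.01. Tl itself ran from 14343 to 21443 in control adults and from 15606 to 22958 in SO2A adults, a difference of 0.01 ± 0.14. In Imd signalling, Rel differed by 0.13 ± 0.11, imd by -0.16 ± 0.12 and Diap2, the ubiquitin ligase of the pathway, by 0.23 ± 0.11, and none was called with limma.

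**Figure D2:**
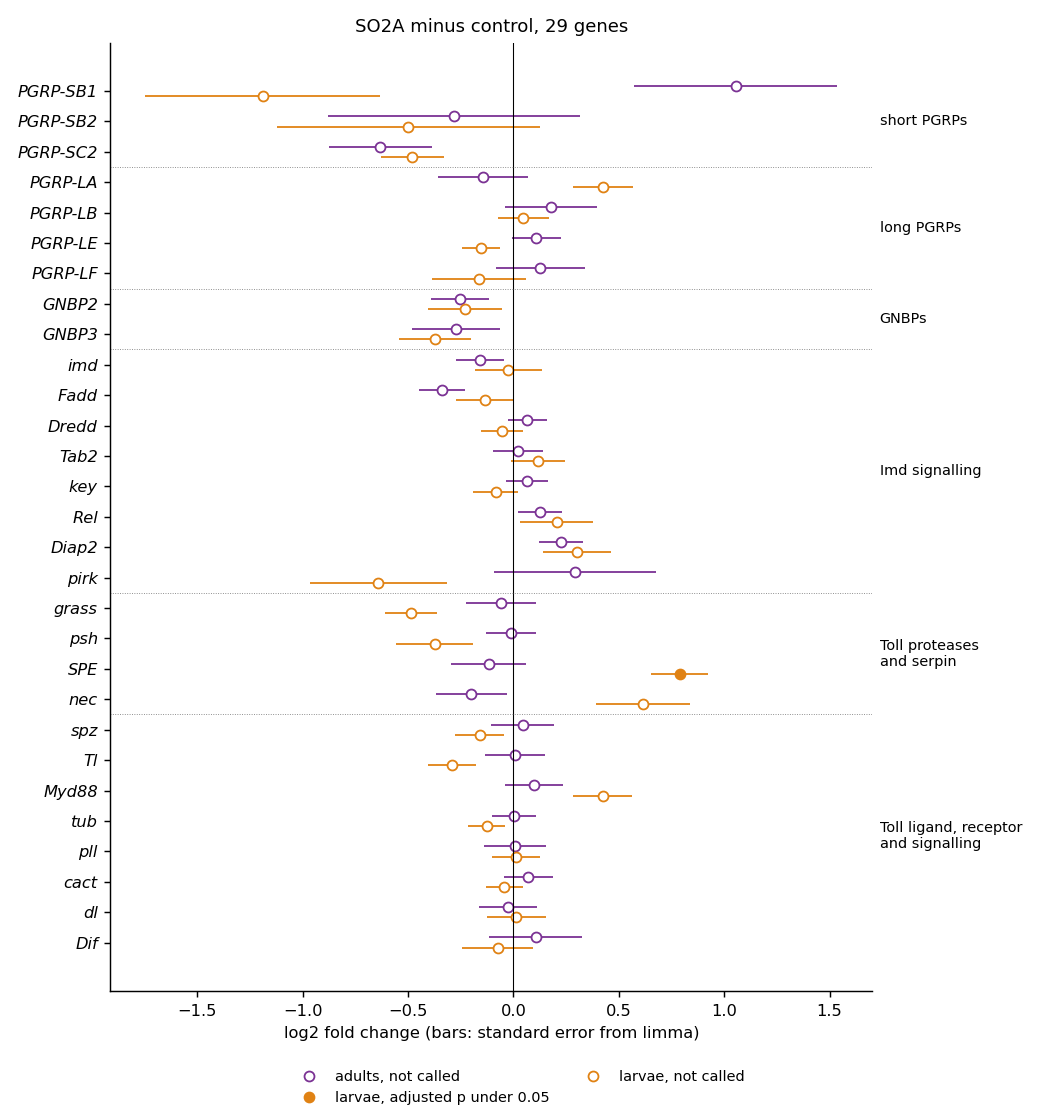
log2 fold change of SO2A minus control for the 29 genes, ordered by role, in adults and in larvae, each from 6 arrays of 3 populations a group; bars are 1 standard error from limma and filled points have an adjusted p under 0.05. SPE in larvae, at 0.79, is the only filled point, and PGRP-SB1 lies at 1.06 in adults and -1.19 in larvae.

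In larvae, 1 of the 29 genes was called in SO2A against control populations with limma, beside 1.65% of all probe sets. That gene was SPE, the protease that processes spz. Its signal in the control larvae was 1097 to 1325 with a median of 1262, and in the SO2A larvae 1673 to 2764 with a median of 2065. Every SO2A array lay above every control array, and the means of the SO2A populations were 1860 (population 1), 2201 and 2423. The difference was 0.79 ± 0.14, or 1.73-fold, with an adjusted p of 0.0173. Under quantile normalization it was 0.91 with an adjusted p of 0.0167, and with arrays centred on their medians it was 0.97 with 0.0392. The call was lost without any 1 of control populations 1, 2 and 3 or SO2A population 2, with adjusted p of 0.0572, 0.0718, 0.112 and 0.0891, while the difference itself stayed between 0.70 and 0.89 whichever population was left out. No marker of hemocytes (7 measured), fat body (6), gut (6), ovary (8) or testis (7) was called between the larval groups. Their median differences were -0.41, -0.23, 0.10, -0.37 and -0.48, beside -0.11 over all probe sets. The summed fat body signal overlapped between the larval groups, at 396197 to 525786 in control larvae and 380697 to 468514 in SO2A larvae. That of hemocytes did too, at 32335 to 42125 and 30002 to 40911. No stage marker was called either. The 2 measured larval ones summed to 237357 to 291894 in control and 151026 to 247875 in SO2A larvae. The part of tissue make-up or larval age in the SPE difference was not tested.

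In adults SPE read 3021 to 4874 in control and 2535 to 4595 in SO2A populations, and the SO2A minus control difference was -0.12 ± 0.18. The test of whether the difference of SO2A and control populations differed between stages called SPE, at -0.91 ± 0.20 for adults minus larvae with an adjusted p of 0.0222 in limma. It was the only 1 of the 29 genes so called, and 1.97% of all probe sets were. Without control population 1 or 3 this call was lost, with adjusted p of 0.104 and 0.118.

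**Figure D3:**
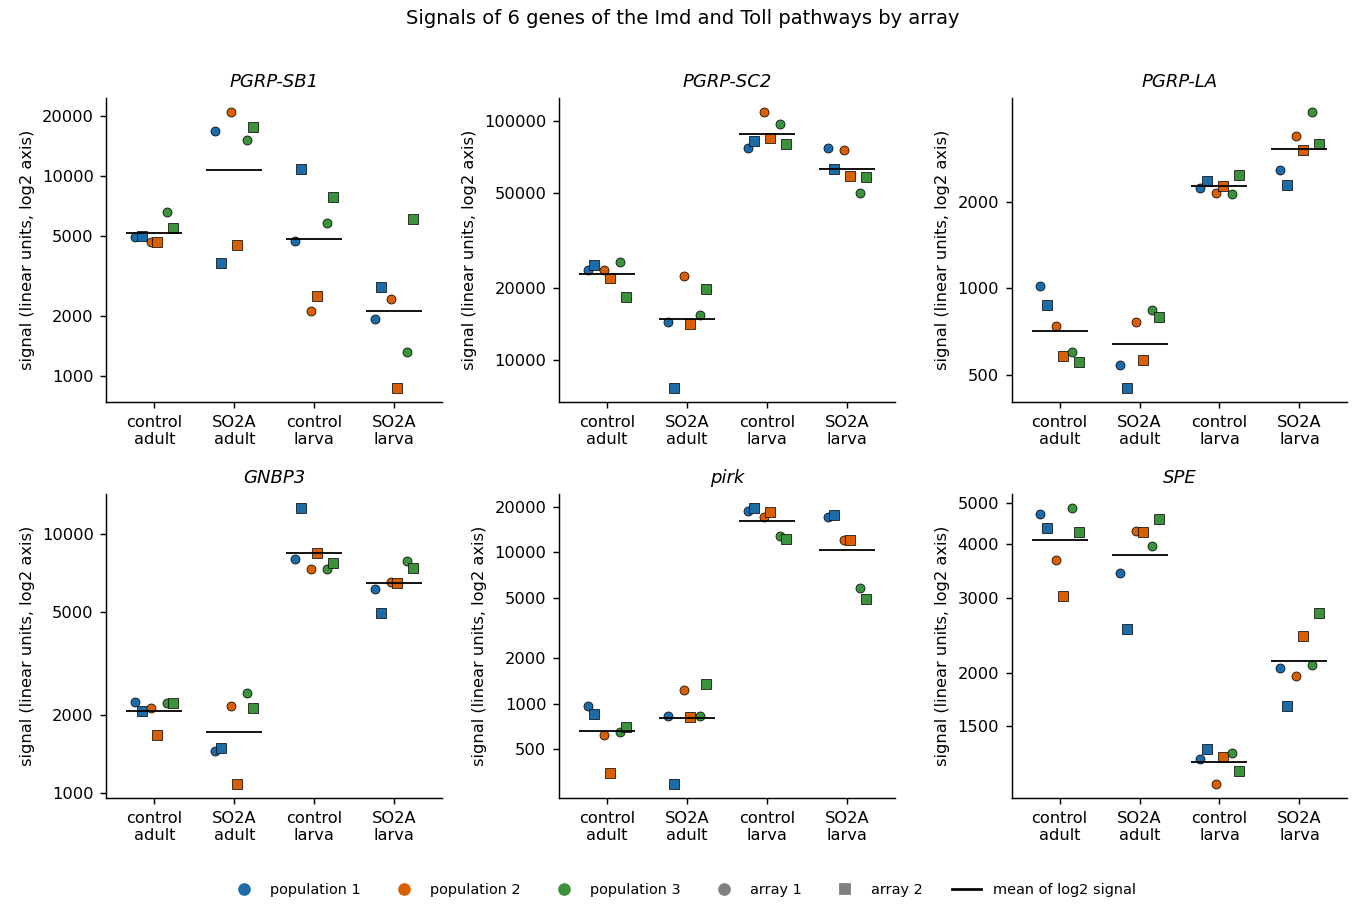
Signals of PGRP-SB1, PGRP-SC2, PGRP-LA, GNBP3, pirk and SPE on all 24 arrays, on a log2 axis in the linear units of the deposited table; colours are populations, shapes the first and second array of a population, and bars the mean of the log2 signals of 6 arrays. SPE in SO2A larvae lies between 1673 and 2764, above all control larvae, and pirk in SO2A larvae of population 3 lies at 5838 and 4931.

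PGRP-SC2 was the only other gene whose larval groups did not overlap, which 4.12% of all probe sets did not. The margin was narrow. Control larvae ran from 77078 to 109624 (median 83820) and SO2A larvae from 50206 to 77048 (median 60895), so the 2 groups nearly touched. The difference was -0.48 ± 0.15 with an adjusted p of 0.129. With the adult difference of -0.63, PGRP-SC2 was lower on average in SO2A populations at both stages and was called at neither. The probe set shared by PGRP-SC1a and PGRP-SC1b, amidases of the same gut group, differed by -1.31 ± 0.61 in larvae with an adjusted p of 0.318. On the 2 arrays of SO2A population 3 it read 6195 and 20343, against 53671 to 109991 on the other 4 SO2A arrays and 89667 to 123700 in control larvae.

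The larval difference of PGRP-SB1 ran the other way from that in adults. Its signal was 2113 to 10931 in control larvae with a median of 5291, and 864 to 6137 in SO2A larvae with a median of 2166. The groups overlapped, and 3 SO2A arrays lay below every control array. The difference was -1.19 ± 0.56 with an adjusted p of 0.322, and the difference between stages was 2.24 ± 0.68 with an adjusted p of 0.0832, so neither was called. DptB had a difference of -1.52 ± 0.68 in larvae (adjusted p = 0.302), and its difference between stages was called at 6.05 ± 1.20 (adjusted p = 0.0113 in limma). The metchnikowin gene Mtk, encoding an antifungal peptide, was called there too, at 5.16 ± 1.12 (adjusted p = 0.021). The other 4 measured peptide genes were not called in it, with AttD at 2.52 (adjusted p = 0.144), CecB at 2.03 (adjusted p = 0.0608), Drs at 0.13 (adjusted p = 0.945) and BomS2 at -1.11 (adjusted p = 0.693). DptA, AttA, AttB, AttC, Dro, CecA1, CecA2, CecC, BomS1, BomS3 and BomBc1 were listed as well but were not measured here.

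The larval signal of pirk was uneven among the SO2A populations. Control larvae ran from 12218 to 19679 with a median of 17672, and SO2A larvae from 4931 to 17590 with a median of 12047. SO2A population 1 read 16953 and 17590, within the control range, whereas population 3 read 5838 and 4931. The difference was -0.64 ± 0.33 with an adjusted p of 0.362. With each population left out in turn it ranged from -1.01 to -0.17, and was closest to 0 without SO2A population 3.

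Upstream of spz, nec and grass differed in opposite directions on average in larvae and neither was called. nec encodes the serpin that holds the protease cascade in check. It was 1208 to 2423 in control larvae (median 1871) and 2286 to 3779 in SO2A larvae (median 2662), with 4 SO2A arrays above every control array, a difference of 0.61 ± 0.22 and an adjusted p of 0.198. grass, a serine protease of the cascade, was 2102 to 3008 in control larvae (median 2776) and 1755 to 2278 in SO2A larvae (median 1850). All but 1 SO2A array lay below every control array for grass. Its difference was -0.49 ± 0.12 with an adjusted p of 0.0762, which became 0.0415 with the arrays taken as independent. Between stages the differences of nec and grass were -0.81 ± 0.25 and 0.43 ± 0.18, with adjusted p of 0.0948 and 0.225. With arrays centred on their medians the grass difference between stages was 0.16 (adjusted p = 0.762), and that in larvae was -0.30 (adjusted p = 0.436).

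Among the other genes in larvae, PGRP-LA, Myd88, Tl and GNBP3 also had an unadjusted p under 0.05, which with SPE, PGRP-SC2, grass and nec made 8 of the 29, beside 3043 of the 18769 probe sets. PGRP-LA, a membrane protein of the family that acts in barrier epithelia, was 2133 to 2466 in control and 2282 to 4106 in SO2A larvae, with 5 SO2A arrays above all controls and a difference of 0.42 ± 0.14 (adjusted p = 0.165). The adaptor Myd88 differed by 0.42 ± 0.14 (adjusted p = 0.155). GNBP3 was 7321 to 12606 in control and 4957 to 7863 in SO2A larvae, a difference of -0.37 ± 0.17 (adjusted p = 0.308). Tl was 3849 to 4459 in control and 2850.3 to 3964 in SO2A larvae, a difference of -0.29 ± 0.11 (adjusted p = 0.235). With arrays centred on their medians GNBP3 was at -0.19 (adjusted p = 0.76) and Tl at -0.11 (adjusted p = 0.757). PGRP-SB2 remained dim at 63.2 to 403.6 and 54.7 to 367.4, a difference of -0.50 ± 0.62 (adjusted p = 0.748). In all, 10 of the 29 genes lay above 0 in larvae and 19 below, beside a median of -0.11 over all probe sets, and for 10 genes the sign depended on the scaling.

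A list of 47 further genes of the pathways, 40 of them measured, was counted beside these. None of the 40 was called with limma in adults, in larvae or in the difference between stages. Its median difference was -0.01 in adults and -0.08 in larvae.

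The stages themselves differed far more than the selected and control populations did. In the control populations 23 of the 29 genes were called between adults and larvae with limma, 11 higher in adults and 12 lower. Of all probe sets 28.9% were called higher and 22.1% lower. In the SO2A populations 12 genes were called higher and 10 lower, where 34.1% and 19.4% of all probe sets were. That split shifted with scaling, to 7 higher and 14 lower under quantile normalization and to 8 and 11 with arrays centred on their medians, while in control populations it was 9 and 13, and 11 and 9. The arrays of the stages did not overlap for 21 genes in the control populations (37.9% of all probe sets) and for 17 in the SO2A populations (38.9%). Both comparisons used all 24 arrays for their estimate of the spread.

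Of the 9 measured recognition proteins, 6 were called lower in control adults than in control larvae and none higher. Of all probe sets, 22.1% were called lower there and 28.9% higher. The 6 were all 4 measured long PGRPs, PGRP-SC2 and GNBP3, while PGRP-SB1, PGRP-SB2 and GNBP2 were not called. PGRP-SC2 was 18406 to 25687 in adults against 77078 to 109624 in larvae, a difference of -1.94 ± 0.19 (3.83-fold, adjusted p = 5.24e-09 in limma). GNBP3 was 1671 to 2244 against 7321 to 12606, a difference of -2.01 ± 0.17 (4.03-fold). The arrays of both genes were far apart between the stages. The probe set shared by PGRP-SC1a and PGRP-SC1b differed by -5.07 ± 0.52 (33.6-fold). GNBP2 differed by 0.33 ± 0.14 (adjusted p = 0.0546), and by -0.25 ± 0.14 in adults and -0.23 ± 0.18 in larvae between SO2A and control populations.

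PGRP-LA was 555 to 1017 in control adults against 2133 to 2466 in larvae and differed by -1.68 ± 0.17. PGRP-LF, which blocks the receptor PGRP-LC, was 473.7 to 629.7 against 1034 to 2562 and differed by -1.38 ± 0.20. These neighbours flank PGRP-LC itself, which was not analysed. PGRP-LB differed by -1.37 ± 0.16, and PGRP-LE, the intracellular and secreted sensor, by -0.39 ± 0.09, a call that was lost with arrays centred on their medians (adjusted p = 0.108). In SO2A populations PGRP-LE was not called, at -0.13 ± 0.09, but was called lower under quantile normalization, at -0.45 (adjusted p = 8.24e-05). PGRP-SC2, GNBP3, PGRP-LA, PGRP-LB and PGRP-LF were called lower in SO2A adults under all 3 scalings too, with differences of -2.09, -1.91, -2.25, -1.24 and -1.09.

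PGRP-SB1 alone among the recognition proteins was called higher in adults, and that in the SO2A populations. Its difference there was 2.35 ± 0.48 (5.11-fold, adjusted p = 0.000203 in limma), from 3669.9 to 21113 in adults and 864 to 6137 in larvae. The 4 high adult arrays lay above every larval array and the other 2 did not. In control populations it differed by 0.11 ± 0.48. Taking only the second array of each population, the SO2A difference was 1.44 with an adjusted p of 0.171.

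**Figure D4:**
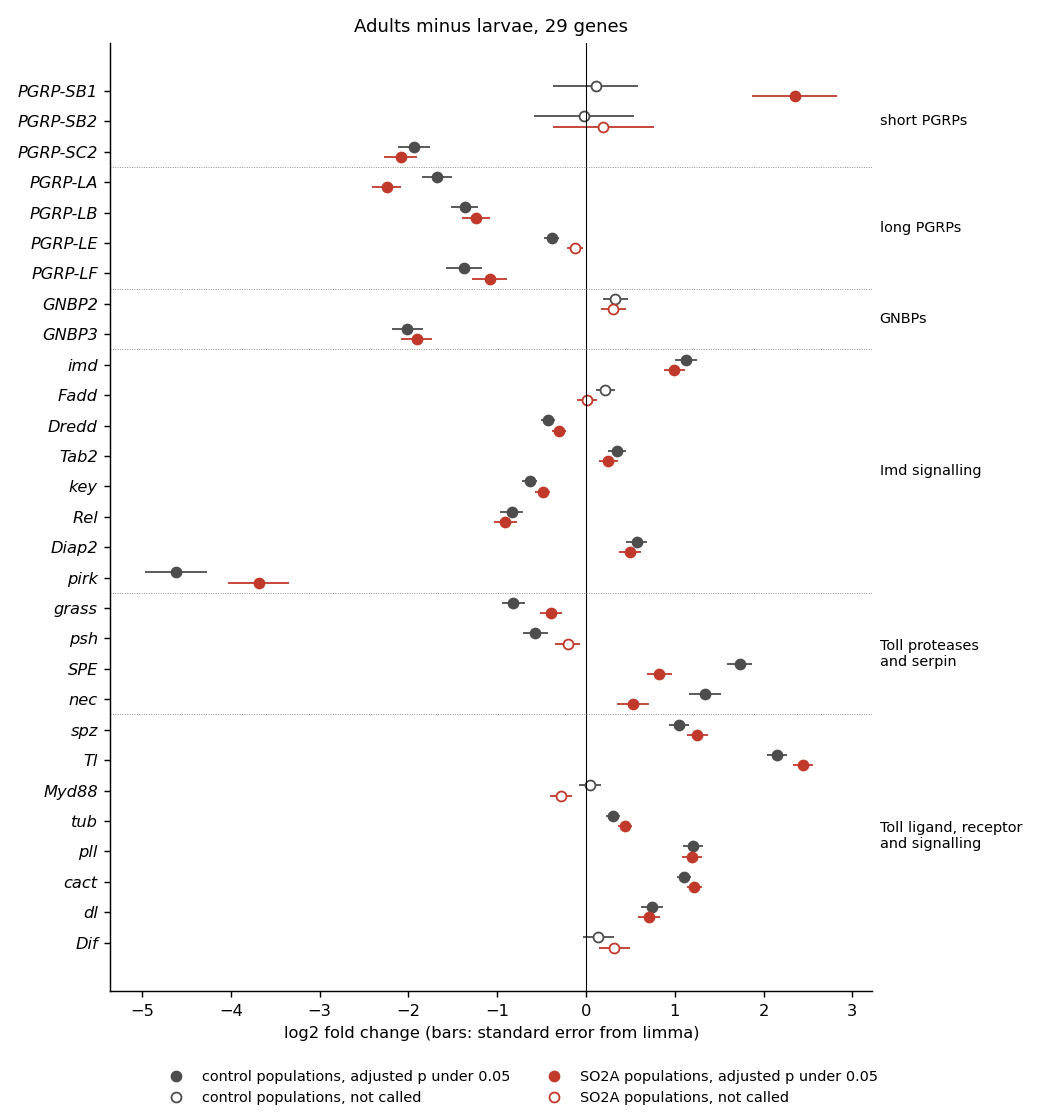
log2 fold change of adults minus larvae for the 29 genes, ordered by role, in control and in SO2A populations; bars are 1 standard error from limma over 24 arrays and filled points have an adjusted p under 0.05. pirk is lowest at -4.62 in control populations, the measured long PGRPs all lie below 0, and Tl is highest in both at 2.15 and 2.45.

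Within the Imd cascade the members went both ways. pirk had the largest stage difference of the 29 genes. It was 350.3 to 964.9 in control adults against 12218 to 19679 in control larvae, a difference of -4.62 ± 0.35 (24.6-fold, adjusted p = 9.7e-11 in limma), and -3.69 ± 0.35 (12.9-fold) in SO2A populations. Even the highest adult array was far below the lowest larval one. Lower in control adults were also Rel at -0.83 ± 0.13, key, the regulatory subunit of the IKK complex, at -0.63 ± 0.09, and Dredd at -0.42 ± 0.08. The adaptor imd was higher, with 1438 to 1658 in control adults against 511 to 874 in larvae and no overlap, a difference of 1.13 ± 0.12 (2.19-fold). Diap2 was higher by 0.57 ± 0.12, and Tab2, which binds ubiquitin chains beside Tak1, by 0.35 ± 0.11. Dredd was not called with arrays centred on their medians (adjusted p = 0.0591) and Tab2 not under quantile normalization (adjusted p = 0.172). Fadd was not called in control populations under any of the 3 scalings, and in SO2A populations it was called under 1 of them, lower in adults under quantile normalization at -0.41 (adjusted p = 0.0106). In SO2A populations the calls of Tab2 (0.25) and Diap2 (0.50), both higher in adults, were lost under quantile normalization (adjusted p = 0.706 and 0.0664) and with arrays centred on their medians (adjusted p = 0.677 and 0.0793).

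On the Toll side the proteases were split. SPE was 3021 to 4874 in control adults against 1097 to 1325 in larvae, a difference of 1.73 ± 0.14 (3.32-fold, adjusted p = 3.68e-10 in limma). nec was 3689 to 5391 against 1208 to 2423, a difference of 1.35 ± 0.18. For both genes the stages did not overlap in control populations. grass and psh, the protease that microbial proteases activate, were lower in adults, with differences of -0.82 ± 0.13 and -0.57 ± 0.14, the latter not called with arrays centred on their medians (adjusted p = 0.0504). In SO2A populations SPE was higher by 0.82 ± 0.14 and nec by 0.53 ± 0.18, and under quantile normalization neither was called (adjusted p = 0.053 and 0.661). The nec call was lost with arrays centred on their medians as well (adjusted p = 0.139). psh was not called there at -0.21, but was called lower under quantile normalization at -0.55 (adjusted p = 0.00975).

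From ligand to transcription factor, 6 of the 8 Toll genes were called higher in control adults by their brightest probe set and none lower. Of all probe sets, 28.9% were called higher there and 22.1% lower. The split of the Toll genes depended on the scaling for tub and Myd88, and the other probe set of dl was called lower. Tl, the receptor, was 14343 to 21443 in control adults against 3849 to 4459 in larvae, a difference of 2.15 ± 0.11 (4.44-fold, adjusted p = 3.01e-13 in limma). The kinase pll was 2713 to 4212 against 1229 to 1578, a difference of 1.20 ± 0.11 (2.30-fold). spz differed by 1.05 ± 0.12, the inhibitor cact by 1.10 ± 0.08 and dl by 0.75 ± 0.12, and none of these 5 genes overlapped between stages. The adaptor tub, at 0.30 ± 0.08, was not called under quantile normalization (adjusted p = 0.678), and Myd88 and Dif, at 0.05 and 0.14, were not called. Under quantile normalization Myd88 was called lower in control adults, at -0.35 (adjusted p = 0.0195). In SO2A populations the same 6 were called higher, beside 34.1% of all probe sets, with Tl at 2.45 ± 0.11 and pll at 1.20 ± 0.11. The call of tub there, at 0.44, was lost under quantile normalization (0.096, adjusted p = 0.311) and with arrays centred on their medians (0.28, adjusted p = 0.15). Myd88 was at -0.28 in SO2A populations (adjusted p = 0.059), and was called lower in adults under quantile normalization, at -0.71 (adjusted p = 2.26e-05), and with arrays centred on their medians, at -0.44 (adjusted p = 0.0234).

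Markers of other tissues differed between the stages as well. All 8 ovary markers were called higher in adults, with a summed signal of 120584 to 158167 in control adults and 3389 to 7714 in control larvae. Of 7 hemocyte markers 6 were called lower in adults, with sums of 11529 to 14082 against 32335 to 42125, and 5 of 6 fat body markers were lower too, with sums of 227722 to 310014 against 396197 to 525786. The remaining hemocyte marker and the remaining fat body marker were called higher in adults. The fat body markers were Lsp2, Fbp1, Fbp2, apolpp, Lsd-1 and Yp1, and Yp1 was also on the list of adult stage markers. Stage and amount of fat body therefore cannot be told apart by this list. Among 6 gut markers 2 were higher and 3 lower, and of 7 testis markers 3 were higher and 1 lower. In SO2A populations 8 ovary markers were again higher, 6 hemocyte and 4 fat body markers were lower, and 1 of each was higher. The part of these tissues in the stage differences of the recognition and signalling genes was not tested. In the further list, 16 of the 40 measured genes were called higher in control adults and 16 lower, beside 28.9% and 22.1% of all probe sets. Higher were the proteases ndl, snk, gd and ea, which act upstream of spz in the embryo, by 6.55 ± 0.49, 3.00 ± 0.59, 1.85 ± 0.70 and 1.31 ± 0.13. Lower were the proteases spirit and Hayan, with differences of -2.66 ± 0.44 and -1.59 ± 0.17, the serpin gene Spn27A with -0.85 ± 0.12 and the receptor gene Toll-7 with -3.85 ± 0.49. In SO2A populations 17 of the 40 were higher and 14 lower, these 8 among them, where 34.1% and 19.4% of all probe sets were.

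**Figure D5:**
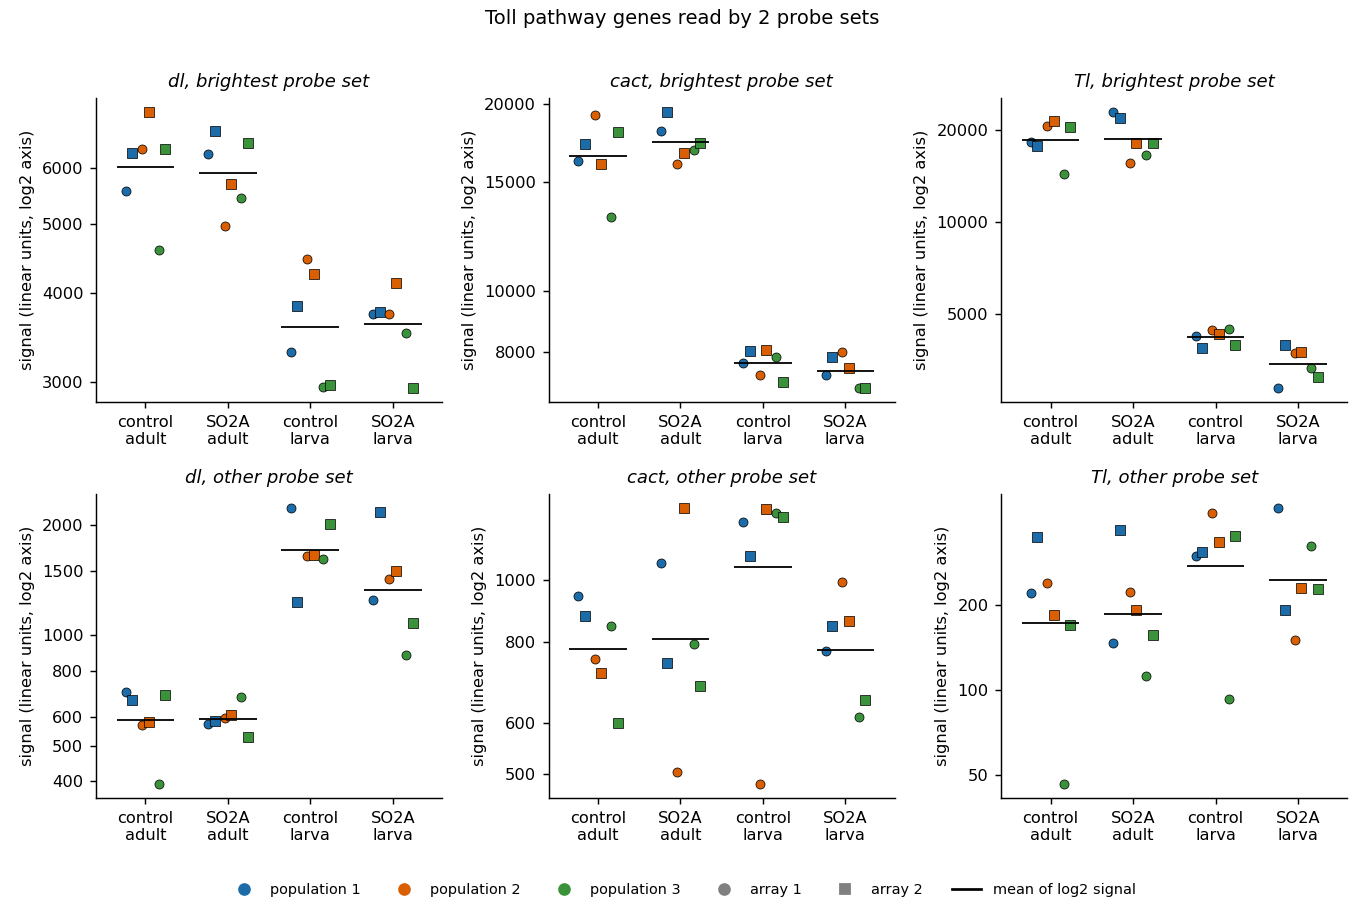
Signals of dl, cact and Tl on all 24 arrays by their brightest and their other probe set, on a log2 axis in the linear units of the deposited table; colours are populations, shapes the arrays of a population and bars the mean of the log2 signals of 6 arrays. dl is higher in adults by its brightest probe set and lower by its other, which lies at 393.4 to 701.3 in control adults and 1235 to 2226 in control larvae.

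The genes dl, cact and Tl were each read by 2 probe sets, and these gave different stage differences. For dl, a transcription factor of the pathway, the brightest probe set was 4594 to 7188 in control adults and 2952 to 4467 in control larvae. The other dl probe set was 393.4 to 701.3 and 1235 to 2226. Both differences were called, 0.75 for the brightest and -1.53 ± 0.18 (adjusted p = 1.26e-07 in limma) for the other, so that they opposed each other without overlap, and the same held in SO2A populations at 0.71 and -1.16. For cact the other probe set differed by -0.42 ± 0.23 and for Tl by -0.66 ± 0.41, neither called (adjusted p = 0.136 and 0.194) and both of opposite sign to the brightest. The other Tl probe set was dim, from 46.6 to 346.6 in control adults. In adults or larvae none of these 3 probe sets was called between SO2A and control populations. Which transcripts each probe set reads was not examined.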

How the data were processed

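Total RNA of whole animals was hybridised to 24 one-colour arrays. Linear intensity values were deposited by the authors, scaled so that the mean after trimming 2% at each end was the same on every array. The methods name dChip's model-based index and RMA, but which of them gave these values was not stated, and the genome build was not given in the sources used here. Of 18952 probe sets, 183 controls were left out. GEO's platform annotation gave 1 symbol to 13646 probe sets and several to 402, and did not list 4721. Symbols were updated through RefSeq gene identifiers. No sequences were used and no coordinates are given here; gene order in the RefSeq gene table of the Release 6 assembly showed which genes neighbour each other.

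Intensities were set to at least 1.0, taken to log2 and fitted with limma 3.58.1 in R 4.3.3 (lmFit, eBayes), with population as a random block. The block correlation was 0.133 in the 12 adult arrays, 0.153 in the 12 larval arrays and 0.0425 in the fit of all 24, which gave the stage comparisons and the interaction. Adjusted p-values were taken over 18769 probe sets in each of 5 comparisons. A gene was read by the probe set with the highest mean log2 signal. The fit was tested on simulated data. Tables were made with Python 3.11.15, pandas 2.3.3, numpy 2.4.6 and scipy 1.17.1, and figures with matplotlib 3.10.9.

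The groups and population numbers came from the sample labels. Control and SO2A populations share only a number, so it paired no control population with an SO2A population in the main fit. In the fit of all 24 arrays, the adults and larvae of a population shared a block. Such adults and larvae correlated by -0.07 to 0.10 in their deviations from the group means. The 2 arrays of a population correlated by 0.915 to 0.952 and arrays of different populations of a group by 0.917 to 0.947. The block correlations were low (0.0425 to 0.153), so the p-values set each difference mostly against the spread between single arrays. With population means as the unit, 0 of 18769 probe sets were called in adults, in larvae or in the difference between stages. The number of arrays and populations limits the precision.

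Values by array were given for genes called between SO2A and control populations or in the difference between stages, the 6 largest differences in adults and in larvae, the 5 largest in each direction between stages of control populations, and genes whose groups did not overlap. PGRP-LB and the second probe sets were added. The genes and lists were chosen with earlier results of these data known. The alternatives tried were quantile normalization, centring on array medians, arrays taken as independent, population means, the population number as a fixed block, a floor at the signal of 90.4, dim probe sets left out, first or second arrays alone, each population left out, all 24 arrays in one fit, any probe set of a gene, and a fold over 1.5 with a Bonferroni adjusted p under 0.0001.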

Additional observations from a re-analysis of the deposited data

Results flagged for a closer look

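In 5 of 116 groups of 6 arrays, 1 array stood apart from the others by more than Dixon's criterion (a gap of over 0.625 of the group's range), where about 5.8 would be flagged by chance at 1 in 20. PGRP-SB1 read 6137 on the second array of SO2A larval population 3, a gap of 0.636 of the range. GNBP3 read 1671 on the second array of control adult population 2 (0.71) and 12606 on the second array of control larval population 1 (0.792). grass read 2278 on the second array of SO2A larval population 2 (0.688), and tub read 4283 on the first array of control adult population 3 (0.815). The SO2A minus control difference of SPE differed between stages by -0.91 (adults minus larvae), by limma's test of that difference.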

How the results depend on the processing

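In adults no gene of the set was called under any alternative run. The larval count of 1, beside 309 of 18769 probe sets, became 2 with arrays taken as independent, beside 598. It was 2 with a floor at the 20th percentile, beside 817 probe sets, and 2 with all 24 arrays in one fit, beside 881. It was 0 with population means, with first arrays alone, with second arrays alone and at the stricter fold and Bonferroni thresholds. It ranged from 0 to 1 with 1 population left out. With the population number as a fixed block it was 3, SPE with grass (adjusted p = 0.037) and pirk (adjusted p = 0.0479), and the probe sets called in all rose from 309 to 1136. The numbers share no litter or chamber in the labels: deviations of control and SO2A samples of the same number correlated by -0.08 to 0.00 in adults and by 0.00 to 0.12 in larvae. In the fit of all 24 arrays the fixed block was each separate population instead, which paired its adults with its larvae. No count of called genes moved there by over 1.5 times (1 for the difference between stages, 24 and 21 for adults against larvae). The count of 1 for the difference between stages became 0 with population means, 0 with first or second arrays alone and 0 at the stricter thresholds, and was 0 to 1 with 1 population left out. Between adults and larvae the stricter thresholds left 9 genes of 23 in control and 8 of 22 in SO2A populations. Of the 18769 probe sets, 2921 and 3210 met these thresholds. Leaving out populations gave 22 to 24 genes in control and 18 to 22 in SO2A populations. With 1 population left out in turn, the adult difference of PGRP-SB2 (-0.28 on the log2 scale) ranged from -0.68 to 0.043, the highest without SO2A population 1. The difference between stages of PGRP-LE (0.26) became -0.00525 with arrays centred on their medians. The cause of both was not tested. Of 1037 values under alternatives, for differences chosen by the rule for named genes only, 967 kept sign and side of the threshold, 63 lost the call, 5 gained one and 2 changed sign. Left out of that tally are the 8 adult and 10 larval differences whose sign depended on the scaling. The sign of 10 of the 29 differences between stages depended on it too, and of these only PGRP-LE is in the tally. Also left out are the stage calls gained with another scaling by Myd88 in control and by Myd88, PGRP-LE, psh and Fadd in SO2A populations. Probe sets called in all ranged over the alternatives from 0 to 280 in adults (67 in the main analysis), from 0 to 1136 in larvae (309) and from 0 to 693 for the difference between stages (369). Promoter motifs were not run, since no sequences were used here. Signals near 90.4 limit PGRP-SB2 and the second Tl probe set.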
